A study of Drosophila melanogaster with 12 samples.

Results

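The mRNAs of the core cytosolic ribosomal proteins were examined in adult male Drosophila melanogaster, as 32 genes of the 11982 named on the arrays. A gene was a member if a probe set carried its symbol alone and that symbol began with RpL, RpS or RpLP and a number. The diverged or tissue-restricted copies RpL22-like, RpS28a, RpS28-like, RpS5b, RpS10a, RpS19b, RpL10Aa, RpL24-like and RpLP0-like, 9 genes, were left out. This gave 38 probe sets for 32 genes, 21 of the large and 11 of the small subunit, and the brightest probe set stood for each gene. A RefSeq gene table held 92 symbols of this pattern, diverged copies included. The members thus cover only part of the ribosome's proteins, and the rest were not analysed here. RpL7-like, a relative of a yeast nucleolar factor of large subunit assembly, was counted with the large subunit by its symbol alone. RpL37-2 and RpL7-like, 2 paralogs that the symbol rule kept, were dim, with a mean intensity over all arrays of 252 and 411. The other 30 lay at or above the 95.2 percentile of all probe sets.

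Flies of the white-eyed laboratory strain w1118 were moved at 1 to 2 days of age to food with 4% or 0.25% yeast extract (YE) for 6 days, and the low-yeast food is the dietary restriction. About 100 whole males were ground per extract, and the RNA was separated on a sucrose gradient into a low fraction, with 1 to 4 ribosomes on an mRNA, and a high fraction, with 5 or more. The 4 groups of fraction and diet held 3 biological replicates each, 12 arrays in all. The translational index is the log2 ratio of an mRNA's level between the high and the low fraction, and it is not corrected for the length of the coding sequence, which was not used here. Since whole flies were ground, fewer cells of a type and less of an mRNA per cell cannot be told apart.

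Each ribosome joins a small subunit, which reads the mRNA, to a large subunit, which forms the peptide bond, and ribosomal proteins fold and hold the ribosomal RNA of both. They are needed in near-equal amounts, and flies that lack 1 copy of such a gene often show the Minute phenotype of slow development and thin bristles. In animals the translation of these mRNAs is known to respond to nutrients through the TOR kinase, and in mammals through a pyrimidine tract at the start of the mRNA.

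The deposited intensities had a median of 39.3 to 95.6 per array. The highest was that of replicate 1 of the high fraction on 0.25% YE, and the next highest was 60.4. Between 59.0% and 66.4% of probe sets lay above the 95th percentile of the control probe sets. The log2 levels of replicates 2 and 3 of a group correlated at 0.979 to 0.988, whereas replicate 1 correlated with them at 0.859 to 0.943, so replicate 1 stood apart in all 4 groups. All 11 testis and all 9 accessory gland markers were above background on every array in these male samples. The summed level of the 3 yolk protein genes was 23.9 to 105. Yp1 was at background on every array, whereas Yp2 was above it on 4 arrays and Yp3 on 9. All 32 members passed the filter on dim probe sets, and no member was at background in any group.

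On 4% YE the ribosomal protein mRNAs lay toward the low fraction. Of the 32 members 27 were lower in the high than in the low fraction, 0 were higher and 5 did not pass the test (limma, adjusted p under 0.05 over 11261 probe sets), where 17.9% of all probe sets tested were lower and 16.3% higher. The median index of the members was -0.75, with an interquartile range of -0.92 to -0.55, and that of all probe sets was 0.02. The high and low arrays did not overlap in 30 members that were lower, against 27.5% of all probe sets, and in 2 that were higher, against 27.2%. Of the 864 other probe sets at least as bright as the dimmest of the 30 abundant members, 30.6% were lower and the median index was -0.0033. The labels do not say that arrays of the same replicate number share a gradient, and the first array of both 4% YE groups carries no number in its title. Paired on that reading, the median index of the members was -0.84, -0.62 and -0.76, with 30 of 32 below 0 in each pair.

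**Figure D1:**
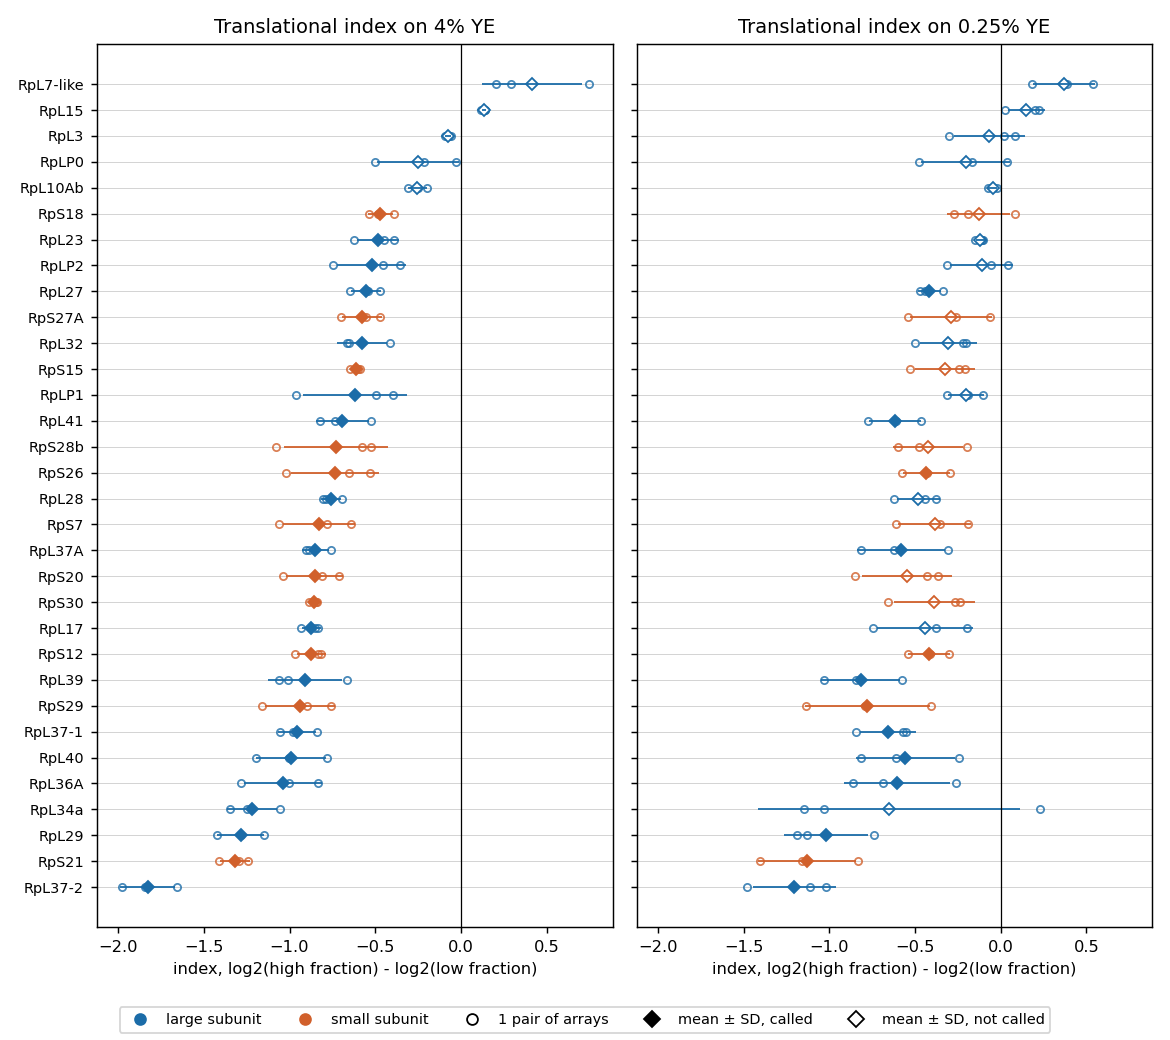
Translational index of each of the 32 members on 4% YE (left) and 0.25% YE (right), in log2 units, ordered by the mean on 4% YE. Open circles are the 3 pairs of arrays, diamonds with bars are mean ± SD (n = 3), and filled diamonds passed limma's test. On 4% YE 27 diamonds are filled and on 0.25% YE 13 are filled, all left of 0.

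All 11 small subunit members were lower in the high fraction on 4% YE, with a median index of -0.83. RpS21, which in flies is known as a tumour suppressor of the larval blood-forming organs, measured 1803, 1533 and 1358 in normalized intensity in the high fraction and 4274, 3768 and 3619.9 in the low fraction. The highest of the high arrays was thus below the lowest of the low ones, and the index of -1.32 ± 0.27 (SE, n = 3 per group, limma adjusted p = 0.0033) was the lowest of the small subunit. RpS29, a zinc-binding protein of the small subunit head, had an index of -0.94 ± 0.17 and RpS12, which in flies marks cells with too few ribosomal proteins for elimination by their neighbours, one of -0.87 ± 0.13. RpS15, whose tail reaches toward the decoding site, measured 3662, 3629 and 3539 in the high and 5736, 5458 and 5365 in the low fraction, an index of -0.61 ± 0.15 (adjusted p = 0.0082). RpS26 and RpS28b, which lie where the mRNA leaves the small subunit, had indices of -0.73 ± 0.14 and -0.73 ± 0.16. RpS7, RpS20 and RpS30 lay between -0.86 and -0.83. RpS18, a protein of the small subunit head, had the index nearest 0 among them, at -0.47 ± 0.10 (adjusted p = 0.004).

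RpL40 and RpS27A are made as fusions to ubiquitin, which is cut off after translation. RpL40 measured 2048, 1788 and 1592 in the high and 3528, 3587 and 3640.2 in the low fraction, an index of -0.99 ± 0.16 (adjusted p = 0.00096). RpS27A measured 4329.7, 3942 and 3938 in the high and 6007, 5779 and 6404 in the low fraction, an index of -0.58 ± 0.12 (adjusted p = 0.0034). Both were lower in the high fraction with no overlap between the arrays.

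RpL41, the smallest ribosomal protein, and RpL39, a very short protein of the tunnel through which the new chain leaves, were both lower in the high fraction. Their indices are not corrected for the short coding sequence, which limits the number of ribosomes on an mRNA. RpL39 measured 2764, 2941 and 2389 in the high and 5779, 4664 and 4808 in the low fraction, an index of -0.91 ± 0.19 (adjusted p = 0.0034). RpL41 measured 4925, 5426 and 4946 in the high and 8693, 7790.3 and 8236 in the low fraction, 1.62-fold lower in the high fraction. RpL17, another protein of the exit tunnel, had an index of -0.87 ± 0.16. RpL23, which lies on the face of the large subunit that meets the small one, measured 4197, 4755 and 4359.9 against 6466, 6222 and 5944, an index of -0.49 ± 0.10 (adjusted p = 0.0041).

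The lowest indices of the large subunit were those of RpL37-2, RpL29 and RpL34a. RpL37-2, the dim paralog of RpL37-1, measured 111, 113 and 98.0 in the high and 401, 358 and 389 in the low fraction, an index of -1.83 ± 0.19 (adjusted p = 0.00016). Its abundant paralog RpL37-1 had an index of -0.96 ± 0.14. RpL29 measured 1643, 1693 and 1543 in the high and 4399.6, 3752 and 3755 in the low fraction, an index of -1.28 ± 0.23 (adjusted p = 0.0014). RpL34a measured 1024, 850.1 and 745 against 2132, 2023 and 1899, an index of -1.22 ± 0.26 (adjusted p = 0.0037). RpL36A, RpL37A and RpL28 had indices of -1.04 ± 0.18, -0.85 ± 0.17 and -0.76 ± 0.17. RpL32, the rp49 gene that fly laboratories use as a reference in quantitative PCR, was among the mRNAs lower in the high fraction, at -0.58 ± 0.14 (adjusted p = 0.0092), next to RpL27 at -0.55 ± 0.13.

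The 5 members that did not pass the test on 4% YE were all counted with the large subunit, RpL7-like by its symbol alone. RpL3, which in yeast reaches close to the site of peptide bond formation, measured 3785, 3713 and 3640.2 in the high and 4031, 3871 and 3825 in the low fraction. The arrays did not overlap, yet the index was -0.07 ± 0.11 (adjusted p = 0.64). RpL15, which binds the core of the large ribosomal RNA, measured 5905, 6038 and 6248 in the high and 5351, 5561 and 5656 in the low fraction, so all high arrays were above all low ones, with an index of 0.13 ± 0.09 (adjusted p = 0.27). RpL10Ab, a protein of the stalk that handles tRNAs leaving the ribosome, had an index of -0.25 ± 0.10 (adjusted p = 0.065). RpL7-like, a relative of a yeast nucleolar factor of large subunit assembly, measured 525, 362 and 403 in the high and 312, 314 and 329 in the low fraction, an index of 0.41 ± 0.20 (adjusted p = 0.12). The other stalk of the large subunit, which recruits elongation factors, is formed by RpLP0 at its base and by RpLP1 and RpLP2. RpLP0 measured 2573, 3355 and 2959 in the high and 3647, 3426 and 3435 in the low fraction, an index of -0.25 ± 0.16 (adjusted p = 0.24). RpLP1 measured 3225, 4158 and 3918 against 6288, 5474 and 5529 (index -0.62 ± 0.14, adjusted p = 0.0059), and RpLP2 2974, 4146 and 3898 against 4997, 5310.2 and 5351 (index -0.52 ± 0.14, adjusted p = 0.014). In all 3 stalk mRNAs replicate 1 of the high fraction was the lowest of its group. In the values as deposited the calls of RpLP1 and RpLP2 were lost. That of RpLP2 was also lost without replicate 3 of the low fraction on 4% YE and without the intensity trend in the variance. The difference between RpLP0 and its partners was not tested.

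**Figure D2:**
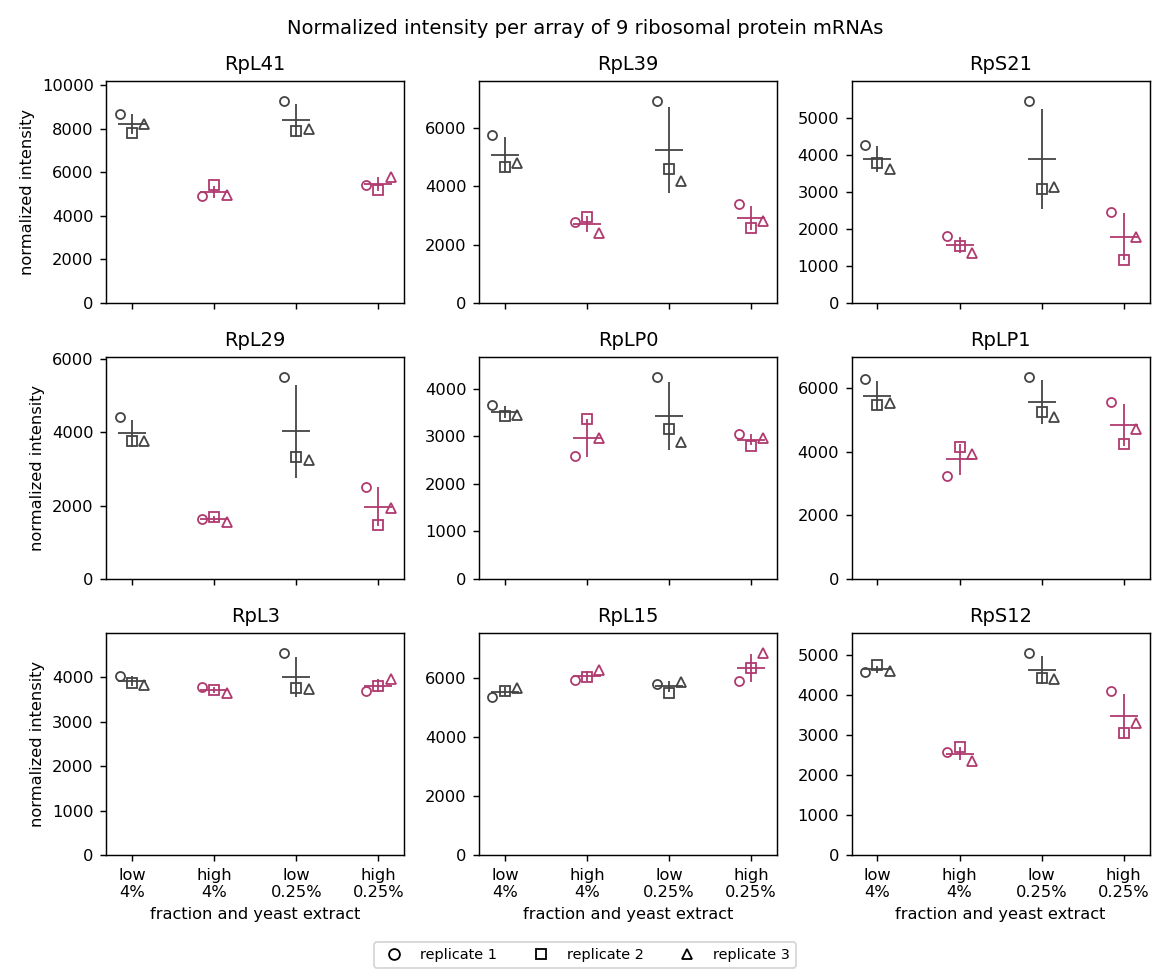
Normalized intensity (linear axis from 0) of 9 members on the 12 arrays, by fraction and percent yeast extract. Marker shapes are the replicates, and horizontal bars with lines are mean ± SD (n = 3). RpL41, RpL39, RpS21 and RpL29 are lower in both high groups, RpL3 and RpL15 differ little between fractions, and replicate 1 is the highest low-fraction array on 0.25% YE in every gene shown but RpL15.

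The members' median index kept its direction under each scaling tried, at -0.75 on 4% YE as normalized, -0.71 as deposited, -0.96 with a common median and -0.64 with quantile normalization within each fraction, while the balance over all probe sets moved. In the values as deposited the median index of all probe sets was 0.32 on 4% YE and 0.41 on 0.25% YE, and the members lay 1.03 and 0.67 below it in log2 units. The share of calls over all probe sets that were higher moved from 47.6% to 77.8% on 4% YE and from 45.1% to 92.2% on 0.25% YE in those values. In them 12 members were lower on 4% YE and 1 on 0.25% YE, and none was higher. With quantile normalization within each fraction RpL7-like was called higher on both diets.

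On 0.25% YE the members again lay toward the low fraction, with fewer calls. The test called 13 of the 32 members lower, none higher and 19 in neither direction, where 11.7% of all probe sets were lower and 9.65% higher, and 21 members had an unadjusted p under 0.05, as had 4123 of the 11261 probe sets. The median index was -0.42 against 0.02 over all probe sets, and -0.30, -0.59 and -0.30 in the 3 pairs of arrays. The arrays did not overlap in 17 members that were lower, against 17.3% of all probe sets, and in 2 that were higher, RpL15 and RpL7-like, against 16.1%. With the replicate number as a block 17 members were lower, RpL17, RpL28, RpS20 and RpS30 being added. Without the block the indices of these 4 were -0.44 ± 0.16, -0.48 ± 0.17, -0.55 ± 0.20 and -0.39 ± 0.18, with adjusted p between 0.06 and 0.14. The count of calls rested on single arrays, being 22 without replicate 1 and 3 without replicate 2 of the high fraction on 0.25% YE.

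The lowest indices on 0.25% YE were those of RpL37-2, RpS21, RpL29 and RpL39. RpL37-2 measured 165, 127 and 179.6 in the high and 357, 356 and 365 in the low fraction, an index of -1.20 ± 0.19 (adjusted p = 0.0028). RpS21 measured 2442, 1165 and 1765 against 5446, 3079 and 3140.0, an index of -1.13 ± 0.27 (adjusted p = 0.014). RpL29 measured 2515, 1461 and 1935 against 5494, 3335 and 3231 (-1.02 ± 0.23, adjusted p = 0.01), and RpL39 3385, 2564 and 2804 against 6924, 4602 and 4179 (-0.82 ± 0.19, adjusted p = 0.012). In RpS21, RpL29 and RpL39 replicate 1 was the highest of both groups on this diet. RpL41, at 5426, 5190.2 and 5797 against 9277, 7914 and 8006, had the index with the smallest error among the called members, -0.62 ± 0.10 (adjusted p = 0.003). It was the only member called on 0.25% YE under each of the 21 settings tried, none of which corrects for its short coding sequence. RpL37-1 (-0.66 ± 0.14), RpS29 (-0.78 ± 0.17), RpL36A (-0.60 ± 0.18), RpL37A (-0.58 ± 0.17), RpL40 (-0.56 ± 0.16), RpS26 (-0.43 ± 0.14), RpS12 (-0.42 ± 0.13) and RpL27 (-0.42 ± 0.13) were also lower.

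The members that did not pass on 0.25% YE included the whole elongation factor stalk. RpLP0 measured 3039, 2799 and 2952 in the high and 4237, 3148 and 2875 in the low fraction (-0.20 ± 0.16), RpLP1 5561, 4243 and 4728 against 6342, 5263 and 5084 (-0.20 ± 0.14) and RpLP2 5017, 3929 and 4744 against 5208, 4889 and 4612 (-0.11 ± 0.14), with adjusted p between 0.33 and 0.61. All 3 overlapped between fractions. RpL23 (-0.12 ± 0.10), RpS27A (-0.29 ± 0.12) and RpS15 (-0.33 ± 0.15) did not pass either, nor did RpL3 (-0.07 ± 0.11), RpL15 (0.15 ± 0.09), RpL10Ab (-0.05 ± 0.10) and RpL7-like (0.37 ± 0.20). RpL34a, among the lowest on 4% YE, measured 1734, 899 and 828 in the high and 1477, 1837 and 1837 in the low fraction. Its replicate 1 went the opposite way to replicates 2 and 3, and the index was -0.65 ± 0.26 (adjusted p = 0.088). RpL32, RpS7, RpS18 and RpS28b had indices of -0.31 ± 0.14, -0.38 ± 0.16, -0.13 ± 0.10 and -0.42 ± 0.16.

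The change of the index between diets, the comparison the study was designed for, was not called for any member, and limma called 1 of 11261 probe sets, 0.00888%. Without adjustment 4 members, RpL23, RpL37-2, RpS12 and RpS18, had p under 0.05, as had 484 of the 11261 probe sets. The fitted index was higher on 0.25% than on 4% YE in 31 of 32 members, with a median change of 0.29. Over all probe sets 48.0% were above 0 and the median was -0.02. Among the 864 bright probe sets that were not members 61.5% were above 0, with a median of 0.14. The median change of the members was 0.46, 0.05 and 0.42 for replicates 1, 2 and 3, with 29, 20 and 32 members above 0, so replicate 2 showed little of it. Leaving out 1 array at a time moved the median between 0.18, without replicate 1 of the high fraction on 0.25% YE, and 0.42, without replicate 2 of that group. Each member's 3 indices per diet did not overlap in 13 of 32 members, all higher on 0.25% YE, against 10% of all probe sets, and in 0 members lower, against 7.64%.

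The largest fitted changes of the index were those of RpL37-2, RpL34a, RpS30 and RpS12, and all had adjusted p of 0.99. RpL37-2 had indices of -1.84, -1.66 and -1.98 on 4% and -1.11, -1.48 and -1.02 on 0.25% YE, a change of 0.62 ± 0.27. RpS12 had indices of -0.83, -0.82 and -0.97 on 4% and -0.30, -0.54 and -0.41 on 0.25% YE, a change of 0.46 ± 0.18. RpL23 had -0.62, -0.39 and -0.45 against -0.10, -0.15 and -0.11, a change of 0.37 ± 0.15. These 3 did not overlap between diets. RpL34a, with -1.06, -1.25 and -1.35 against 0.23, -1.03 and -1.15, overlapped between diets with a fitted change of 0.57 ± 0.36, and only its replicate 1 on 0.25% YE was above 0. Among the mRNAs picked out by role the changes were 0.42 ± 0.20 for RpLP1, 0.41 ± 0.20 for RpLP2, 0.05 ± 0.22 for RpLP0, 0.44 ± 0.23 for RpL40, 0.29 ± 0.17 for RpS27A, 0.29 ± 0.21 for RpS15, 0.10 ± 0.27 for RpL39 and 0.08 ± 0.14 for RpL41. RpL3 (0.0085 ± 0.16) and RpL15 (0.01 ± 0.13) had nearly the same index on both diets, and RpL7-like (-0.04 ± 0.28) was the member below 0.

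**Figure D3:**
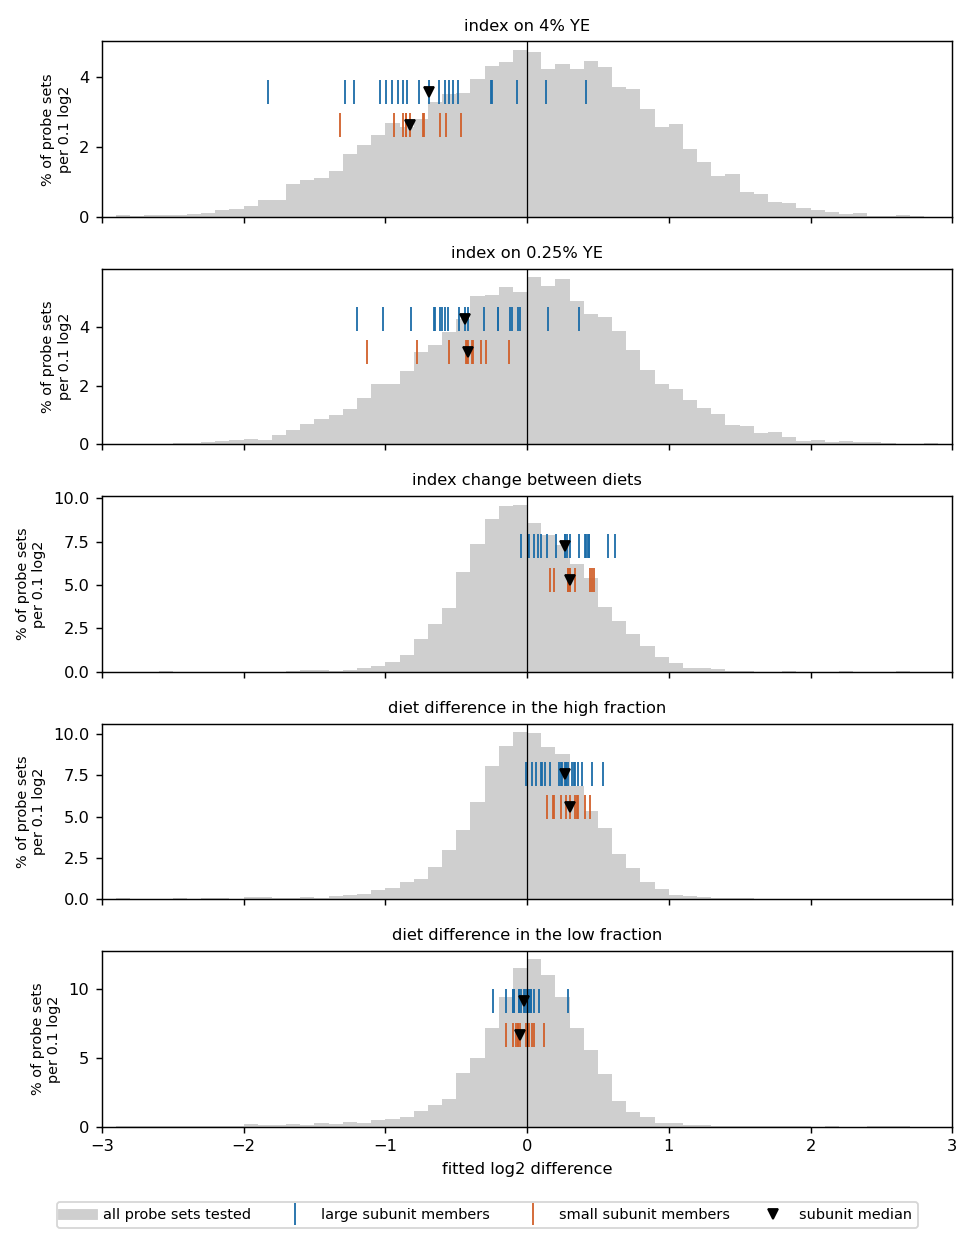
Fitted log2 differences of the members (coloured ticks by subunit) over the distribution of all 11261 probe sets tested (grey bars, percent of probe sets per 0.1 log2), for 5 comparisons. Black triangles are subunit medians. Most ticks lie left of 0 for both indices, and right of 0 for the index change and for the diets in the high fraction. In the low fraction they lie around 0.

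Set within fractions, the diets differed in no member past the test. In the high fraction 0 members were called, where 1.77% of all probe sets were (0.542% higher and 1.23% lower), and 10 had an unadjusted p under 0.05, as had 1534 of the 11261. The fitted level was higher on 0.25% than on 4% YE in 31 of 32, with a median of 0.27, against 52.0% and 0.02 for all probe sets. The median was 0.15 without replicate 1 and 0.42 without replicate 2 of the high fraction on 0.25% YE, and in the values as deposited it was 0.28 against 0.21 for all probe sets. The arrays of the 2 diets did not overlap in 7 members, all higher on 0.25% YE, against 11.8% of all probe sets. RpS12 measured 2564, 2694 and 2349.5 on 4% and 4089, 3039 and 3308 on 0.25% YE, a difference of 0.45 ± 0.13 (adjusted p = 0.12). RpL37-1 measured 1397, 1586 and 1372 against 2149, 1658 and 1905, a difference of 0.39 ± 0.14 (adjusted p = 0.23), and RpL10Ab, RpL17, RpL23, RpL37-2 and RpLP1 were the others. By replicate number the median difference was 0.50, -0.03 and 0.32. It fell from 0.27 to 0.09, with 22 of 32 members above 0, when arrays were scaled to a common median.

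In the low fraction 0 members were called, where 0.968% of all probe sets were (0.0977% higher and 0.870% lower), and none had an unadjusted p under 0.05, as had 1015 of the 11261. The median was -0.03 with 13 of 32 above 0, against 0.03 and 54.1% for all probe sets. It was -0.24 with 1 of 32 above 0 when scaled to a common median, against -0.03 for all probe sets. As deposited it was -0.08 against 0.14. It ran from -0.12 to 0.03, across 0, when 1 array was left out. RpL34a, RpL40 and RpS18 were lower on 0.25% YE with no overlap, against 8.21% of all probe sets, and RpL7-like was higher, against 8.63%. RpL40 measured 3528, 3587 and 3640.2 on 4% and 3319, 3244 and 3144 on 0.25% YE, a difference of -0.15 ± 0.16 (adjusted p = 0.88). Averaged over both fractions 0 members were called, where 4.13% of probe sets were (1.23% higher and 2.90% lower), and the median was 0.11 against 0.04 for all probe sets. Scaled to a common median it turned to -0.10, with 4 of 32 members above 0, and as deposited the members lay -0.10 from the median of all probe sets.

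Markers of some other tissues differed between diets beside these values, and those of others overlapped. The summed level of the 9 accessory gland markers overlapped between diets in both fractions. Among the high arrays it was 25039 to 28396 on 4% and 22330 to 29454 on 0.25% YE. Among the low arrays it was 36679 to 37554 and 34106 to 40454. The neuron sums also overlapped in both fractions. The gut sums overlapped among the low arrays and met near 23206 among the high ones. On 4% YE the summed level of the 5 muscle markers on the arrays was 4531 to 5439 in the high fraction. It was 5023 to 6208 in the low fraction. On 0.25% YE the same sums were 7269.8 to 8944 and 7209 to 8201. All 5 had a diet difference above 0 within each fraction. Only 1 of them was called among the high arrays, and 0 were called among the low arrays. The summed level of the 4 fat body markers on the arrays was 12396 to 14596 and 9457 to 10232 on 4%, and 4808 to 7774 and 4436 to 5288 on 0.25% YE, with Fbp1 and Fbp2 at background on every array. Of the other 2 fat body markers Lsp2, a storage protein of the blood, was called lower on 0.25% YE, at -6.38 ± 0.77 and -6.61 ± 0.77 in the high and low fractions (adjusted p = 0.0012 and 0.00091). apolpp, the lipid carrier of the blood, was not called (-0.18 ± 0.16 and -0.05 ± 0.16), so the sum differed through Lsp2. The summed level of the 11 testis markers was 8633 to 12539 in the high and 12231 to 18594 in the low fraction on 4% YE, and 12074 to 15435 and 17551 to 22932 on 0.25% YE. Their median diet difference was 0.40 in each fraction, with 9 of 11 above 0 in the high and 11 of 11 in the low fraction, and none was called in either. Their part in the diet differences of the ribosomal protein mRNAs was not tested.

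The large and the small subunit mRNAs were set side by side in each group as the median log2 level per array, as a description, since levels of different probe sets do not measure relative abundance. The large subunit median minus the small was -0.10 ± 0.10 (SD, n = 3) in the high fraction on 4% YE and -0.28 ± 0.03 in the low fraction. On 0.25% YE it was -0.31 ± 0.11 and -0.24 ± 0.07 in the high and low fractions. Without RpL37-2 and RpL7-like it was -0.04 ± 0.14 in the high fraction on 4% YE and between -0.25 and -0.21 in the other 3 groups. Single arrays overlapped. Over all members replicate 3 of the high fraction on 4% YE was at -0.20 and replicate 1 of the low fraction on 0.25% YE at -0.17. Without RpL37-2 and RpL7-like these 2 arrays were at -0.19 and -0.15. The difference between the groups was not tested. The mean of the median index over the pairs of arrays was -0.68 ± 0.14 for the large and -0.81 ± 0.19 for the small subunit on 4% YE, and -0.41 ± 0.18 and -0.39 ± 0.16 on 0.25% YE. These subunit values overlapped within their SD on both diets. Diet differences in the high fraction had a median of 0.27 for the large and 0.30 for the small subunit, and changes of the index 0.27 and 0.30.

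The 32 members together held 1.63% ± 0.09 (SD, n = 3) of the summed deposited intensity in the high fraction and 2.87% ± 0.18 of that in the low one on 4% YE. On 0.25% YE the shares were 1.78% ± 0.15 and 2.78% ± 0.59. The high and low arrays did not overlap on either diet, and the widest spread was in the low fraction on 0.25% YE, where replicate 1 was the highest. The diets overlapped within both fractions.

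**Figure D4:**
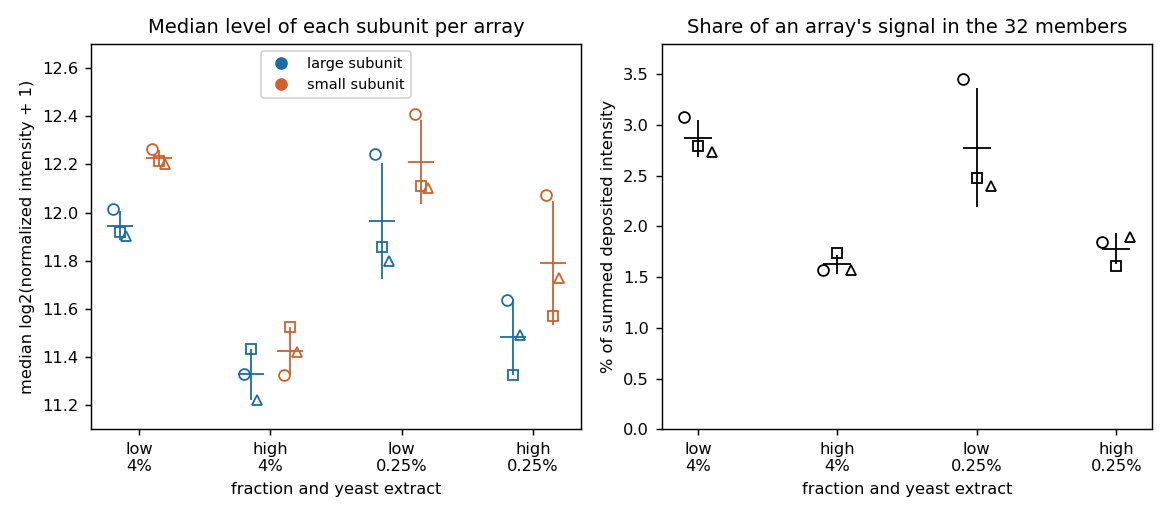
Left, the median log2(normalized intensity + 1) of the 21 large and 11 small subunit members on each array. Right, the percent of an array's summed deposited intensity in the 32 members, on an axis from 0. Markers are replicates 1 (circle), 2 (square) and 3 (triangle), and bars are mean ± SD (n = 3). Both subunits and the share are lower in the high than in the low fraction on both diets, and the circle is the highest in both 0.25% YE groups on the left.

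The index was also set against the level of the probe set. Across the 30 abundant members the index on 4% YE correlated with the mean log2 level at Pearson's r = 0.64 and Spearman's rho = 0.73, and that on 0.25% YE at 0.57 and 0.64. With RpL37-2 and RpL7-like the values were 0.30 and 0.61 (n = 32) on 4% YE, and 0.28 and 0.53 on 0.25% YE. These are descriptions across genes measured on the same 12 arrays, and the level is part of both measures. The 14 members read by probe sets that can match several transcripts had a median index of -0.79 on 4% YE, the 4 read by probe sets for transcripts of the same gene -0.78 and the 14 read by probe sets unique in design -0.67.

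For 4 genes more than 1 probe set was present. The second probe set of RpS29, with a mean intensity of 2129.6, had indices of -1.42 ± 0.18 on 4% and -1.14 ± 0.18 on 0.25% YE, lower than the -0.94 and -0.78 of the brightest. The second of RpS30, at 181, had -1.03 ± 0.25 on 4% YE, close to the -0.86 of the brightest. The second of RpL3, at 46.3, had an index of -1.03 ± 0.33 on 4% YE (adjusted p = 0.029), whereas the brightest had -0.07, so the probe sets of RpL3 disagreed. The remaining probe sets, 1 each of RpL3, RpS29 and RpS7, were too dim to be tested.

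Other mRNAs of the translation machinery were read for comparison. Of a list of 41 such genes 31 were on the arrays. On 4% YE 4 were higher in the high fraction, 4 were lower and 23 did not pass, with a median index of -0.01 (background 34.2% in either direction). The higher ones were Nopp140 (1.62 ± 0.26) and Nop56 (1.60 ± 0.48) of the nucleolus, the ribosomal protein kinase S6k (1.5 ± 0.35) and the initiation scaffold eIF4G1 (1.23 ± 0.43). The lower ones were bic (-1.11 ± 0.21) and Nacalpha (-0.56 ± 0.13), the subunits of the chaperone complex that binds new chains at the ribosome, the elongation factor eEF5 (-0.36 ± 0.11) and the growth regulator Tctp (-0.36 ± 0.11). Rack1, which sits on the small subunit and is often counted as a ribosomal protein, had an index of -0.22 ± 0.13 (adjusted p = 0.2). On 0.25% YE Nop56, Nopp140 and S6k were higher and bic was lower, 4 of 31 where 21.4% of all probe sets were called in either direction. For the index change none was called, 13 of 31 were above 0 and the median was -0.08.

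Of the 9 diverged copies left out of the members, 5 had a called index below 0 on 4% YE and none one above 0, RpS28a (-2.26), RpS28-like (-2.11), RpL24-like (-1.11), RpS5b (-0.96) and RpS19b (-0.86), where 17.9% of all probe sets were lower and 16.3% higher. On 0.25% YE 4 were lower and RpLP0-like was higher, at 1.55, against 11.7% and 9.65%. The index change was above 0 in all 9 with a median of 0.48, against 48.0% of all probe sets, and none was called. Between diets 1 of the 9 was called higher on 0.25% YE in the high fraction, against 0.542% of all probe sets. In the low fraction 0 were called, and averaged over fractions 1 was called higher, against 1.23%.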

How the data were processed

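The authors deposited a linear intensity for each probe set of 12 arrays of 1 colour, each hybridised from 100 ng of RNA per the labels' protocols. Between 9.51% and 13.8% of an array's intensities were below 0. The sources used here do not give the program, background correction or scaling behind them. Symbols came from the platform's annotation, updated through a RefSeq gene table for 13544 of 13647 probe sets with 1 symbol. Values were quantile normalized over the 12 arrays, set to at least 0, and taken as log2(value + 1). The 40% dimmest of 18769 probe sets by mean were left out, which left 11261. limma 3.58.1 in R 4.3.3 (lmFit, eBayes with an intensity trend) was fitted to 4 group means with Benjamini-Hochberg adjustment over all 11261. The fit was also run on simulated data with independent noise for each array. That run does not cover arrays of the same replicate number departing together, so nothing is drawn from it here. Errors of fitted values are SE. The number of arrays limits the precision, since intensities carry no counts.

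The members and gene lists were chosen with earlier results of these data known. A set list of 21 genes held 9 members: the stalk, the ubiquitin fusions, the smallest proteins, RpS15 for decoding, and RpL23 without a stated role. The rest of that list, RpL5, RpL11 and RpS6 among them, were not members. Members named by rule were these 9 and, in each comparison, up to 4 called members with the largest rise and 4 with the largest fall. The others were named after their values were seen, so that each member is accounted for. Departures from the group means of arrays with the same replicate number correlated at 0.166 to 0.669 over the 12 pairs of arrays that share a diet or a fraction. The 6 pairs that share neither correlated at 0.0731 to 0.462, so the ranges overlapped. The high and low arrays on 0.25% YE were at 0.287, 0.194 and 0.166. The numbers were taken to pair the arrays only in the values given per pair or per replicate and in the replicate block. The main fit, its errors and its calls did not use them. Alternatives changed the normalization, offset, filter, variance model, probe set choice and replicate block, and left out each array in turn. Protein lengths, promoters and sequences were not used here.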

Additional observations from a re-analysis of the deposited data

How the results depend on the processing

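Member calls on 4% YE numbered 26 to 28 when 1 array was left out, and 26 to 28 under the others except the values as deposited, where 12 members were called. Over all probe sets 2397 were then called on 4% YE, 1584 on 0.25% YE, and 40, 42 and 158 for diet in the high fraction, the low fraction and averaged, with 1 member called on 0.25% YE. Scaled to a common median, the index on 4% YE had a median of -0.96 for the members, -0.87 for the large and -1.0 for the small subunit, the low-fraction diet difference was -0.24 for the members and -0.26 for the small subunit, and the averaged diet difference reversed, to -0.10 for the members, -0.10 for the large and -0.047 for the small subunit. The cause was not tested. Quantile normalization within each fraction gave -0.53 for the large and -0.66 for the small subunit on 4% YE. For the index change 0 probe sets were called with an offset of 16, 4 with no filter and 3 without the intensity trend, and the latter alternatives each left 7 members called on 0.25% YE. With the replicate block 3932 probe sets were called on 0.25% YE, 474 for diet in the high fraction, 254 in the low, 881 averaged and 0 for the index change. It changed no other call of a member than those given in the report.

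Leaving out 1 array at a time gave 2617 to 4759 calls on 4% YE and 753 to 3581 on 0.25% YE, with 3 to 22 members called. It gave 0 to 1 for the index change, 61 to 507 for diet in the high fraction, 45 to 148 in the low and 260 to 725 averaged. Members called on 0.25% YE numbered 7 without replicate 3 of the high fraction on that diet, and 7 without replicate 1 or replicate 2 of its low fraction. The member medians ran from -0.83 to -0.71 on 4% YE, from -0.56 to -0.32 on 0.25% YE, from 0.18 to 0.42 for the index change, from 0.15 to 0.42 for diet in the high fraction, from -0.12 to 0.03 in the low and from 0.06 to 0.19 averaged.

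With replicates 2 and 3 only, chosen after seeing the data, 6968 probe sets were called on 4% YE, 6498 on 0.25% YE, 18 for the index change, 2509 for diet in the high fraction, 895 in the low and 2516 averaged. The small subunit median on 4% YE was -0.70. On 0.25% YE 27 members were then called, 25 lower and 2 higher, RpL15 and RpL7-like. RpL7-like and RpS12 were higher on 0.25% YE in the high fraction, 2 members, and RpL7-like averaged over fractions, 1 member. The index change of the members was called under none of the 21 alternatives (replicates 2 and 3 only not counted), with a lowest adjusted p of 0.60. RpL10Ab was called on 4% YE with a common median and without replicate 1 of either 0.25% YE fraction, and RpL3 with the mean of all its probe sets. The planned comparison with protein length and promoter motifs was not run. No member was at background in any group, and the number of arrays limits the precision.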
